A study of Mus musculus with 24 samples.

Results

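The 10 genes described here encode the granule proteins, the cytosolic calcium-binding proteins and the surface receptors by which neutrophils are recognised: S100a8, S100a9, Cxcr2, Csf3r, Ly6g, Retnlg, Mmp8, Ngp, Camp and Ltf. They were chosen by symbol from the 51138 genes of the count table, and all 10 were among the 30564 genes with at least 10 counts over the 24 samples. Each sample was bulk RNA from a construct of 40 mg of biphasic calcium phosphate (BCP) granules, a ceramic bone substitute, which had lain under the skin of a Foxp3-DTR/eGFP mouse and was collected at week 2, with 4 animals in each of 6 groups. The hosts were mice of both sexes, 8 to 9 weeks old, in which cells expressing Foxp3, the transcription factor of regulatory T cells (Treg), carry a diphtheria toxin receptor. The BCP group held ceramic alone. The BCP+MSC group also held 800000 mesenchymal stromal cells (MSC), grown from the bone marrow of wild-type C57BL/6J mice. BCP+MSC+RvE1 held MSC primed with 10 nM resolvin E1 (RvE1), a lipid mediator of the resolution of inflammation, and BCP+MSC+Treg held MSC and Treg cocultured at a 1:1 ratio. In the other two groups the host received 50 µg/kg diphtheria toxin and the construct was BCP+MSC: (dep)BCP+MSC had the toxin only, and (dep)BCP+MSC+RvE1inj also had a daily local injection of 50 µL of 1 µM RvE1. None of the 4 undepleted groups received toxin, so an effect of the toxin itself and of losing Treg cannot be told apart. The study presents the toxin-treated groups as a Treg-depletion experiment and does not state whether they ran alongside the others. A difference between experiments therefore cannot be told apart from these effects either.

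Neutrophils are made in the bone marrow and fill their granules in a fixed order. Transcripts of the azurophil granule enzymes come first, and those of the specific granule proteins Ngp, Camp and Ltf follow at the myelocyte stage. The receptors Cxcr2 and Csf3r together with Retnlg were grouped here as genes of the mature cell that leaves the marrow, a grouping that was not tested. CXCR2 binds the CXC chemokines that draw neutrophils into inflamed tissue, and CSF3R is the receptor for granulocyte colony-stimulating factor. In bulk RNA a smaller number of cells of a type and less RNA per cell cannot be told apart.

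The libraries held 8482701 to 144417743 counts, a 17.0-fold range, and the shallowest was that of animal 1 of (dep)BCP+MSC. The animals of that group carry the numbers 1, 2, 4 and 5 in the count table, and these numbers are used here. Animal 5 stood apart: it had the highest level of 9 of the 10 genes within its group, so its effect on the adjusted calls of that group is given below. Foxp3 gave no call in either group labelled as depleted. In CPM, counts scaled to library size, BCP+MSC held 0.933 ± 0.240, (dep)BCP+MSC held 0.985 ± 0.542 and (dep)BCP+MSC+RvE1inj held 0.705 ± 0.315 (SD over 4 animals). Against BCP+MSC the log2 fold changes were 0.04 (SE 0.51, adjusted p = 0.989) and -0.39 (SE 0.51, adjusted p = 0.777) in edgeR's quasi-likelihood test. No loss of Foxp3 was detected in either group, and a loss of the size of these SEs could not have been told from none. The study's methods describe flow cytometry of lymphoid organs as its own check of the depletion, which was not analysed here, so the words depleted and (dep) follow the labels.

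Cathelicidin (Camp), neutrophilic granule protein (Ngp) and lactoferrin (Ltf) are the genes on which the main difference below turns. The receptors Cxcr2 and Csf3r, grouped here with the mature cell, are set beside them. The letters before their first exon, from RefSeq on GRCm38.p6, are shown 5′ to 3′ so that the groups can be compared, each ending where the first annotated exon begins. Capitals mark the motif TTGCNNAA, bound by C/EBP factors, which drive granule genes, on either strand. They would also mark GAGGAAG, bound by PU.1, but no such match lies in these stretches. They cover chr9:110419558-110419746 (plus strand) for Ngp, chr9:109849618-109849706 (minus strand) for Camp, chr9:111019042-111019270 (plus strand) for Ltf, chr1:74153744-74153988 (plus strand) for Cxcr2 and chr4:126024409-126024549 (plus strand) for Csf3r.
Ngp: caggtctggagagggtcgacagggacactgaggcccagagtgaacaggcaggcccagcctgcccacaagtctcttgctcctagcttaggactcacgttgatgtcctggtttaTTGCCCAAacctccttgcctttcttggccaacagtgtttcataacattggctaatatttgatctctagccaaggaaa
Camp: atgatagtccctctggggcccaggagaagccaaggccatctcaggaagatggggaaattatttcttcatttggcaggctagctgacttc
Ltf: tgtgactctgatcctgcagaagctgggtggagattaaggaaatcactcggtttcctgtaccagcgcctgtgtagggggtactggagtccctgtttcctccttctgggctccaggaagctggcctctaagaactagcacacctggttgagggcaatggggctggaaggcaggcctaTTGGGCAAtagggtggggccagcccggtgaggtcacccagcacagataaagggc
Cxcr2: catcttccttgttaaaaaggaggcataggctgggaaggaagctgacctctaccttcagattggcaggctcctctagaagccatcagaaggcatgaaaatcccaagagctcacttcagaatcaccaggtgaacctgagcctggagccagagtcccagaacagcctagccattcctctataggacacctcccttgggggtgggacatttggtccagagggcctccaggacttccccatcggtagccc
Csf3r: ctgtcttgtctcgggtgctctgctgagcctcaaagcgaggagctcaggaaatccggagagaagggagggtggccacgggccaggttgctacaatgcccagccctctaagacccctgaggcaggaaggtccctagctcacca

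Over the full window of 300 bases around the start, all 10 symbols were found in the promoter table. The C/EBP motif was in 6 of the 10 genes (S100a9, Ly6g, Retnlg, Mmp8, Ngp and Ltf), against 12.2% of the 27025 genes in the table. Ngp held 2 matches, of which 1 lies past the stretch shown. The PU.1 motif was in 4 of the 10 (S100a8, Csf3r, Ly6g and Mmp8), against 15.4% of genes, and no base of a member's window lay in both motifs. Camp and Cxcr2 held neither. Ngp, Camp and Ltf share chromosome 9 with Mmp8. In a later GENCODE release than the one used for the counts, no other gene overlapped any of the 10. Ly6g belongs to a family of similar neighbouring genes, so its counts are uncertain where reads match several of them.

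In BCP+MSC the genes fell into an abundant and a scarce set. Per kilobase of exon, S100a9 stood highest at a mean of 202 CPM per kb, followed by S100a8 at 70.8, Retnlg at 69.6, Csf3r at 28.5, Cxcr2 at 7.05, Mmp8 at 2.34 and Ltf at 1.31 CPM per kb. Ly6g, at 0.420 CPM per kb, Ngp, at 0.387, and Camp, at 0.224, were the lowest. In (dep)BCP+MSC the order changed below Csf3r: Ltf was at 14.3, Ngp at 10.2 and Camp at 6.98 CPM per kb, above Cxcr2 at 2.97 CPM per kb. All further levels are CPM scaled by the trimmed mean of M-values, and so compare samples, not genes.

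**Figure D1:**
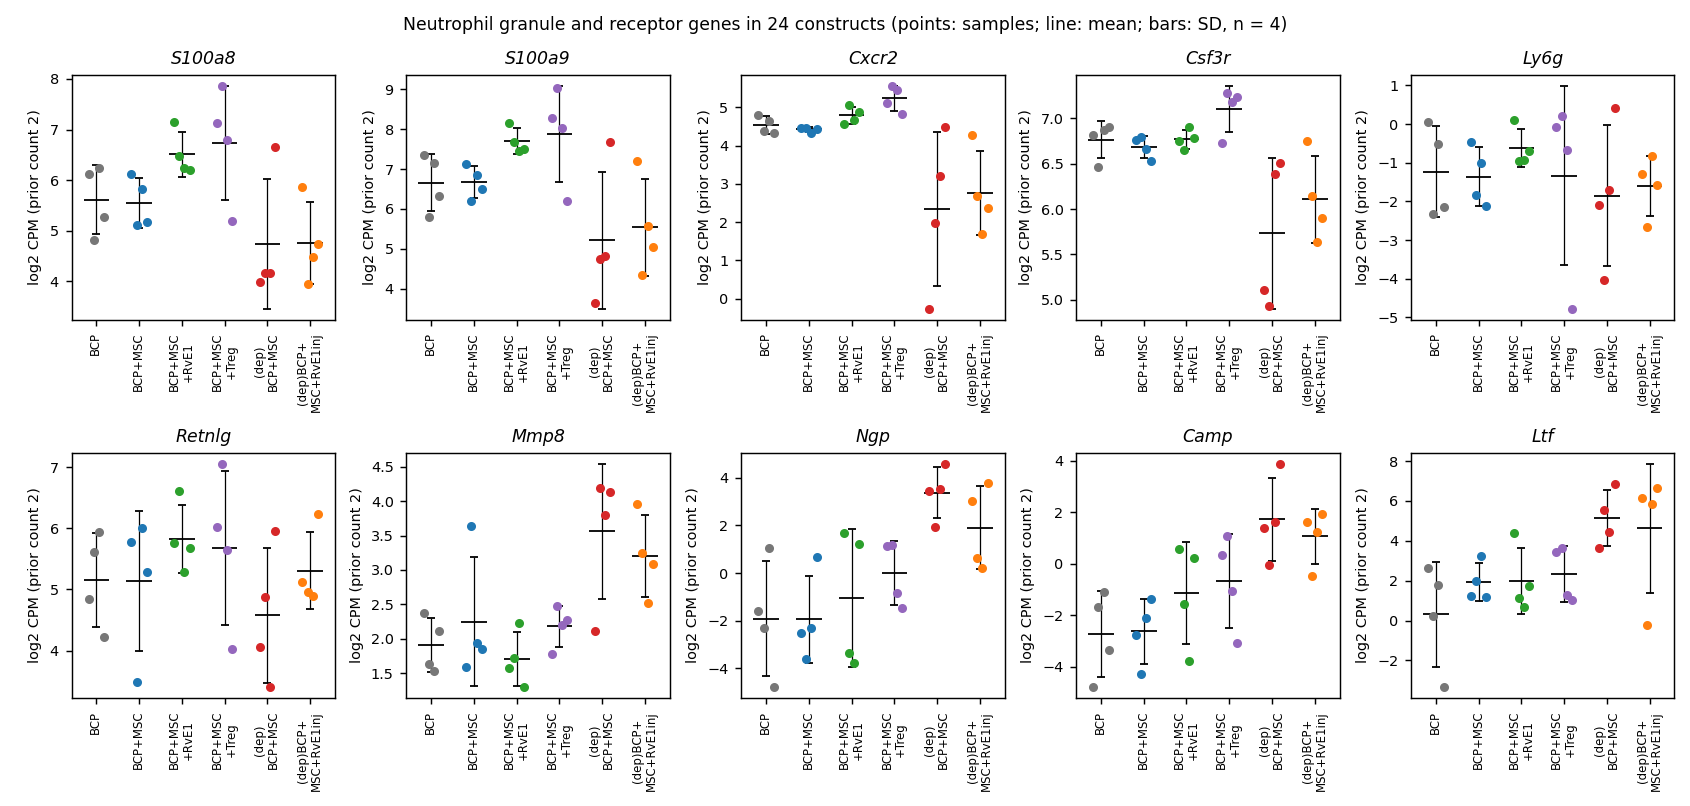
Level of each of the 10 genes in the 24 constructs, as log2 CPM with a prior count of 2, by group. Points are samples, lines are group means and bars are SD (n = 4 each); Ngp, Camp and Ltf sit highest in the 2 groups labelled (dep), where Cxcr2 and Csf3r spread downwards.

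A test for any difference between the 6 groups was fitted first, with edgeR's quasi-likelihood test and Benjamini-Hochberg adjustment over all 30564 genes. It passed for 2 of the 10 genes, Mmp8 (adjusted p = 0.0123) and Camp (adjusted p = 0.0194), against 4.75% of all genes tested. At an unadjusted p below 0.05 it passed for 8 of the 10, against 20.4% of all genes. Ly6g and Retnlg were the pair that did not pass. Their group means ran from 0.328 to 0.653 CPM for Ly6g and from 29.7 to 66.1 CPM for Retnlg, and no comparison of theirs was without overlap. The adjusted count was 8 with DESeq2, which called 13.0% of all genes, and 0 when the level of skin genes was a covariate, where 1.29% of all genes were called.

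Toxin-treated hosts were compared with untreated hosts of the same BCP+MSC construct, which asks how the constructs differ once the host has been given the toxin. Of the 3 specific granule genes Camp was called higher in (dep)BCP+MSC, while Ngp and Ltf lay higher in every sample without passing the adjusted threshold, and neither receptor was called. Camp, an antimicrobial peptide of the specific granule, was the only 1 of the 10 genes called at an adjusted p below 0.05 and a log2 fold change beyond 1, against 3.14% of all genes. Camp was at 2.59, 0.940, 3.07 and 14.5 CPM in animals 1, 2, 4 and 5 of (dep)BCP+MSC. In BCP+MSC it was at 0.109, 0.0153, 0.199 and 0.356 CPM. The groups did not overlap. Group means were 5.29 ± 6.24 and 0.170 ± 0.145 CPM (SD, n = 4 each), and the log2 fold change was 4.93 with a standard error (SE) of 1.15 and an adjusted p of 0.0173. Counts behind the BCP+MSC values were only 1 to 24 per library.

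Ngp, a protein of the same granules, was at 10.8, 3.81, 11.6 and 23.7 CPM in the 4 animals of (dep)BCP+MSC. In BCP+MSC it was at 0.136, 0.0458, 0.166 and 1.54 CPM, so that again every depleted sample lay above every undepleted one. Its log2 fold change was 4.69 (SE 1.43), with an adjusted p of 0.0712. Ltf, which binds iron, was at 12.5, 46.5, 22.0 and 117 CPM in (dep)BCP+MSC. It was at 2.35, 3.95, 9.48 and 2.23 CPM in BCP+MSC, without overlap. Its log2 fold change was 3.46 (SE 1.23), with an adjusted p of 0.121. For Camp, Ngp and Ltf the exact two-sided permutation test of log2 CPM gave p = 0.0286, the smallest that the 70 arrangements allow. Any 2 groups of 4 that do not overlap give this value, so here and below it restates the lack of overlap and adds no support. Mmp8, the neutrophil collagenase, was at 4.29, 18.2, 13.9 and 17.6 CPM, against 2.97, 12.4, 3.77 and 3.55 CPM in BCP+MSC. The groups overlapped through animal 1 and through BCP+MSC replicate 2, and the log2 fold change was 1.26 (SE 0.44, adjusted p = 0.105).

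Neither receptor passed the adjusted threshold. Cxcr2 was at 0.798, 3.90, 9.13 and 22.4 CPM in (dep)BCP+MSC, where BCP+MSC held it within 20.0 to 22.2 CPM. Animals 1, 2 and 4 lay below all 4 undepleted samples and animal 5 above them. The log2 fold change was -1.23 (SE 0.58), with an adjusted p of 0.235. Csf3r was at 34.4, 30.4, 83.9 and 91.2 CPM, all below the 92.0 to 111 CPM of BCP+MSC, by a narrow gap. Its log2 fold change was -0.78 (SE 0.28, adjusted p = 0.116), and the exact permutation test gave p = 0.0286.

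The calprotectin genes S100a8 and S100a9, whose products form the most abundant cytosolic protein of neutrophils and are also made by monocytes, were spread widely. S100a8 was at 15.8, 17.9 and 18.0 CPM in animals 1, 2 and 4 and at 101 CPM in animal 5, against 34.7 to 69.6 CPM in BCP+MSC. S100a9 was at 12.5, 26.7 and 28.0 CPM in the same 3 animals and at 203 CPM in animal 5, against 73.7 to 141 CPM. With all 4 animals their log2 fold changes were -0.36 (SE 0.59) and -0.63 (SE 0.73), neither called. Retnlg, a secreted resistin-like protein, had a log2 fold change of -0.51 (SE 0.62). Ly6g, the surface protein used to sort mouse neutrophils, had 0.25 (SE 0.83) at levels of 0.0241 to 1.30 CPM, and its sign changed without animal 5.

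By the unadjusted rule (p below 0.05, log2 fold change beyond 1), 4 of the 10 genes were higher in (dep)BCP+MSC, namely Mmp8, Ngp, Camp and Ltf, against 6.65% of all genes. By the same rule 1 of the 10 was lower, Cxcr2, against 6.53% of all genes, a share close to that background. The groups did not overlap for 3 of the 10 in the higher direction, against 4.22% of all genes, and for 1, Csf3r, in the lower direction, against 4.93%. Over Ngp, Camp and Ltf the median log2 fold change was 4.69, over Cxcr2, Csf3r and Retnlg it was -0.78, and over all genes tested it was -0.04.

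Without animal 5, 4 of the 10 genes were called at the adjusted threshold, against 4.45% of all genes in that fit: Camp (3.64, adjusted p = 0.0443), and, lower in (dep)BCP+MSC, S100a9 (-2.23, adjusted p = 0.0457), Cxcr2 (-2.17, adjusted p = 0.0244) and Csf3r (-1.06, adjusted p = 0.0355). The other genes were not called. Ngp and Ltf then had log2 fold changes of 4.15 (adjusted p = 0.102) and 2.57 (adjusted p = 0.228), and Mmp8 had 1.11 (adjusted p = 0.165). S100a8 was at -1.53 (adjusted p = 0.0863), Retnlg at -1.19 (adjusted p = 0.301) and Ly6g at -1.24 (adjusted p = 0.437). The call of Camp was lost without BCP+MSC replicate 1 (adjusted p = 0.0633) or replicate 3 (adjusted p = 0.0549). Mmp8 was called as well without BCP+MSC replicate 2 (adjusted p = 0.0109), and Ngp without replicate 4 (adjusted p = 0.0311).

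Skin genes moved with this comparison. Of 10 skin markers all 10 were above 0 in log2 fold change. At the adjusted threshold 3 were called higher, Krt10, Krt1 and Lor, against 1.34% of all genes. The summed level of the 10 was 423, 56.8, 42.4 and 125 CPM in animals 1, 2, 4 and 5, against 23.6 to 65.3 CPM in BCP+MSC. With a score of these markers as a covariate, Camp had a log2 fold change of 4.53 (adjusted p = 0.0756), Ngp 4.23 (adjusted p = 0.209), Ltf 2.27 (adjusted p = 0.308), Cxcr2 -1.10 (adjusted p = 0.411) and Csf3r -0.64 (adjusted p = 0.295). Camp and Ltf are also transcribed in epithelia. The highest skin level was in animal 1. Next in that group came animal 5, which held the highest Camp, Ngp and Ltf, and whose skin level lay above all of BCP+MSC. The part of skin in the result was otherwise not tested.

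**Figure D2:**
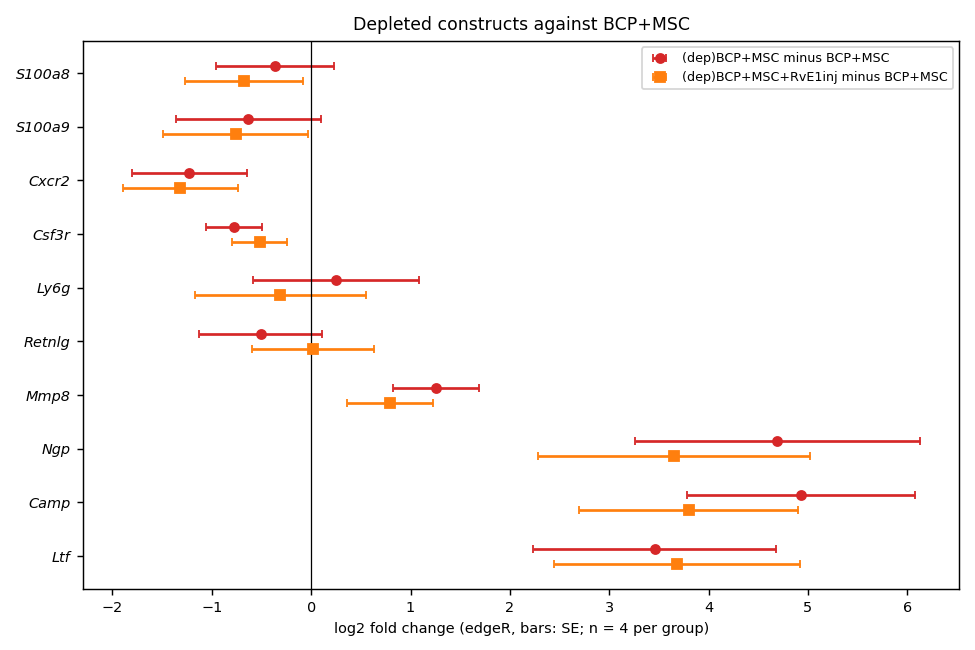
Log2 fold change of each gene in (dep)BCP+MSC and in (dep)BCP+MSC+RvE1inj against BCP+MSC, from edgeR, with bars of 1 SE (n = 4 per group). Ngp, Camp and Ltf lie between 3.46 and 4.93 in both comparisons, and Cxcr2 and Csf3r lie below 0.

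The second toxin-treated group, (dep)BCP+MSC+RvE1inj, was set against the same BCP+MSC samples. This comparison was added after the data were seen, and it shares its controls with the one above. No member was called at the adjusted threshold by edgeR, against 0.661% of all genes, whereas DESeq2 called 3, Ngp, Camp and Ltf, against 2.79% of all genes. By the unadjusted rule 3 of the 10 were higher, again Ngp, Camp and Ltf, against 5.07% of all genes, and 1, Cxcr2, was lower, against 4.38%. Camp was at 3.03, 0.686, 2.31 and 3.73 CPM in replicates 1 to 4, all above BCP+MSC, with a log2 fold change of 3.80 (SE 1.10, adjusted p = 0.117). It was the only 1 of the 10 genes without overlap in the higher direction, against 2.77% of all genes. Ngp was at 8.07, 1.52, 1.12 and 13.6 CPM, with a log2 fold change of 3.65 (SE 1.37, adjusted p = 0.241). Ltf was at 71.3, 0.834, 57.8 and 102 CPM. Replicate 2 lay below all of BCP+MSC and the other 3 above all of it, and the log2 fold change was 3.68 (SE 1.24, adjusted p = 0.195).

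Cxcr2 in (dep)BCP+MSC+RvE1inj was at 19.3, 6.37, 3.21 and 5.15 CPM, and was the only 1 of the 10 genes that lay wholly below BCP+MSC, against 4.44% of all genes. Its log2 fold change was -1.32 (SE 0.58, adjusted p = 0.316). Csf3r was at 107, 70.7, 49.7 and 59.5 CPM and overlapped BCP+MSC through replicate 1, with a log2 fold change of -0.52 (SE 0.28). Mmp8 had 0.79 (SE 0.43), S100a8 -0.68 (SE 0.60) and S100a9 -0.76 (SE 0.73), none of them called. Replicate 1 held the highest Cxcr2, Csf3r, S100a8, S100a9 and Mmp8 of its group. Of the 10 skin markers none was called in this comparison, and their summed level was 25.4 to 130 CPM.

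The daily RvE1 injection was then examined within toxin-treated hosts. The study's methods describe no vehicle injection in (dep)BCP+MSC, so RvE1 and the act of injection cannot be told apart. Of the 10 genes none differed between (dep)BCP+MSC+RvE1inj and (dep)BCP+MSC at the adjusted threshold, where 0% of all genes were called, nor by the unadjusted rule, against 5.13% of all genes, and DESeq2 called none by either rule. Camp was at a mean of 2.44 ± 1.30 CPM with the injection and 5.29 ± 6.24 CPM without it (SD over 4 animals), and its log2 fold change was -1.13 (SE 0.97). Its sign changed without animal 5, to 0.14. Retnlg, at 42.9 ± 22.0 against 29.7 ± 23.0 CPM, had a log2 fold change of 0.53 (SE 0.62). Without animal 5, S100a9 passed the unadjusted rule. Whether the injection in toxin-treated hosts and the priming of MSC in untreated hosts had different effects was tested as an interaction, although the agent was given by different routes. At an adjusted p below 0.05, with no fold threshold, 0 of the 10 genes and 0% of all genes passed in edgeR, and DESeq2 also called no member. At an unadjusted p below 0.05, 1 passed, Camp (-3.24, SE 1.43), against 4.45% of all genes, and this call was lost without any of 6 libraries: BCP+MSC replicates 1 and 2, BCP+MSC+RvE1 replicates 1 and 4, animal 5 and (dep)BCP+MSC+RvE1inj replicate 2.

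The balance between the sets was summarised per sample as the mean log2 CPM of Ngp, Camp and Ltf minus that of Cxcr2, Csf3r and Retnlg. BCP averaged -6.92 ± 1.53, BCP+MSC -6.30 ± 0.82, BCP+MSC+RvE1 -5.87 ± 2.10, and BCP+MSC+Treg -5.45 ± 1.12. The mean was -0.81 ± 0.58 in (dep)BCP+MSC and -2.19 ± 1.68 in (dep)BCP+MSC+RvE1inj (SD, n = 4 each). The 4 samples of (dep)BCP+MSC lay between -1.45 and -0.14, above every undepleted sample. BCP+MSC lay between -7.02 and -5.25. The lowest sample of (dep)BCP+MSC+RvE1inj, at -4.61, was below the highest of BCP+MSC+RvE1, at -3.48, and of BCP+MSC+Treg, at -4.33. As these genes were assigned to the sets with results of these data known, the balance is a description and carries no test.

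**Figure D3:**
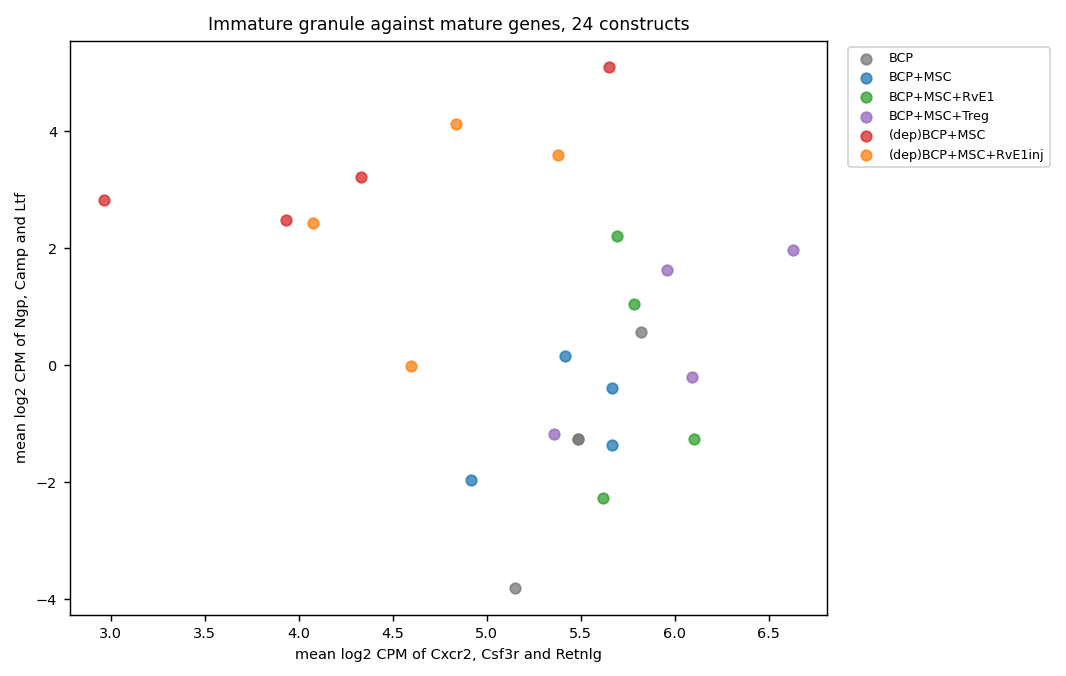
Mean log2 CPM of Ngp, Camp and Ltf (vertical) against that of Cxcr2, Csf3r and Retnlg (horizontal) in the 24 constructs, 1 point per sample. Samples of (dep)BCP+MSC occupy the upper part of the plot, 3 of them to the left and animal 5 to the right, while the undepleted samples lie lower right; BCP replicates 1 and 2 lie on each other.

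Undepleted constructs were compared to ask what MSC, their priming or the added Treg changed. No member was called at the adjusted threshold in any of the 6 comparisons between these 4 groups, by edgeR or by DESeq2, and 0% of all genes were called by edgeR in each. The largest group means were those of BCP+MSC+Treg for the calprotectin genes and Cxcr2. S100a8 was at 139, 231, 111 and 36.3 CPM in BCP+MSC+Treg replicates 1 to 4 and at 142, 89.5, 75.1 and 73.1 CPM in BCP+MSC+RvE1. In BCP+MSC it was at 69.6, 34.7, 56.4 and 36.0 CPM, and in BCP at 69.6, 28.3, 75.4 and 38.8 CPM. Replicate 4 of BCP+MSC+Treg, at 36.3 CPM, lay within the range of the groups without Treg or RvE1. S100a9 followed the same order, with means of 293 ± 185, 212 ± 50.8, 105 ± 29.2 and 110 ± 50.4 CPM in BCP+MSC+Treg, BCP+MSC+RvE1, BCP+MSC and BCP (SD, n = 4 each).

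In BCP+MSC+Treg against BCP+MSC, 2 of the 10 genes passed the unadjusted rule, against 2.56% of all genes. These were S100a8, with a log2 fold change of 1.40 (SE 0.60, adjusted p = 1), and Camp, with 2.51 (SE 1.06, adjusted p = 1). Camp was at 1.23, 2.06, 0.448 and 0.0822 CPM in BCP+MSC+Treg, where replicate 4 fell inside the range of BCP+MSC. The count was 0 without BCP+MSC replicate 2 or without BCP+MSC+Treg replicate 2, and 1 without BCP+MSC replicate 1 or BCP+MSC+Treg replicate 1. Replicate 2 of BCP+MSC+Treg held the highest level of all 10 genes in its group. Cxcr2 was at 34.9, 46.7, 43.8 and 28.2 CPM, above the 20.0 to 22.2 CPM of every BCP+MSC sample, and was the only 1 of the 10 without overlap, against 0.357% of all genes. The exact permutation test gave p = 0.0286, and the log2 fold change was 0.84 (SE 0.57, adjusted p = 1). S100a9 had 1.48 (SE 0.74) with overlap.

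Against BCP, BCP+MSC+Treg gave 1 gene by the unadjusted rule, S100a8, at 1.29 (SE 0.60, adjusted p = 0.614), against 5.85% of all genes. This count was 0 without BCP replicate 2, BCP replicate 4, BCP+MSC+Treg replicate 1 or BCP+MSC+Treg replicate 2, and 3 without BCP+MSC+Treg replicate 4. The share of all genes in that last fit is not given here. Cxcr2 had 0.72 (SE 0.57) and did not overlap, which held for 1 of the 10 genes and for 1.33% of all genes in the higher direction. S100a9 had 1.41 (SE 0.74) and Camp 2.11 (SE 1.04), neither passing.

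In BCP+MSC+RvE1 against BCP+MSC, none of the 10 genes passed the unadjusted rule in edgeR, against 2.50% of all genes, and DESeq2 passed 1, Camp, against 1.52% of all genes. S100a8 had a log2 fold change of 0.95 (SE 0.60), S100a9 of 1.01 (SE 0.73) and Cxcr2 of 0.38 (SE 0.57). All of these had groups that did not overlap, which were 3 of the 10 genes against 0.867% of all genes. Over the undepleted samples S100a8 and S100a9 had r = 0.990, and Cxcr2 had 0.740 and 0.774 with them. They are therefore not 3 separate results. The BCP+MSC samples, where Cxcr2 had a coefficient of variation of only 4.71%, also served as controls for BCP+MSC+Treg and the toxin-treated groups. Cxcr2 was at 23.8, 33.3, 25.3 and 29.6 CPM in BCP+MSC+RvE1. The exact permutation test gave p = 0.0286 for each, and Camp had 2.11 (SE 1.04) with overlap. Against BCP, none of the 10 passed the unadjusted rule by edgeR or DESeq2, against 8.54% of all genes, and S100a9 alone did not overlap (0.94, SE 0.73), against 4.79% of all genes. There S100a8 had 0.84 (SE 0.60), Cxcr2 0.26 (SE 0.57) and Camp 1.71 (SE 1.03).

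**Figure D4:**
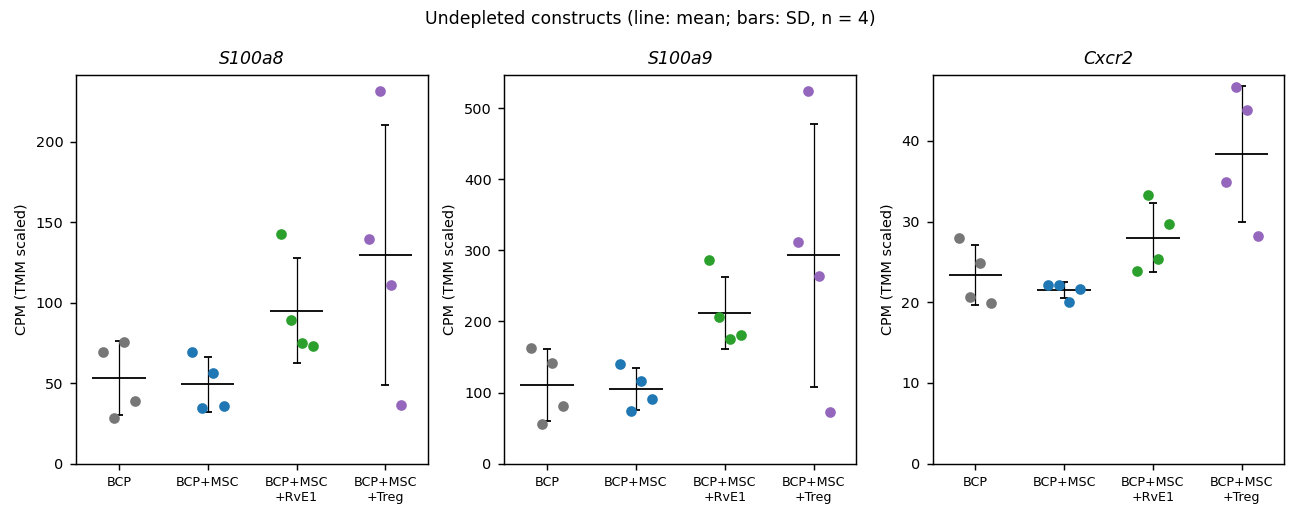
CPM of S100a8, S100a9 and Cxcr2 in the 4 undepleted groups, with points for samples, lines for means and bars for SD (n = 4 each) on axes that start at 0. All Cxcr2 points of BCP+MSC+Treg lie above those of BCP+MSC, and replicate 4 of BCP+MSC+Treg is its lowest point in all 3 genes.

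The other comparisons gave no member. With MSC added to the ceramic, none of the 10 genes passed the unadjusted rule in edgeR or DESeq2, against 4.32% of all genes, and the log2 fold changes ran from -0.51 (SE 1.27) for Ngp to 0.76 (SE 1.15) for Ltf. BCP+MSC+Treg and BCP+MSC+RvE1 also gave none by either tool, against 2.22% of all genes, and S100a9 had the largest value, 0.47 (SE 0.73). A count of 0 for Camp in BCP replicate 1 allows up to 0.175 CPM there, and one for Ngp in BCP replicate 4 allows up to 0.189 CPM, by a limit of 3 counts that covers counting error only.

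Other neutrophil genes were taken as lists. Of the 4 azurophil granule genes, which are the first to be transcribed, none was called at the adjusted threshold in (dep)BCP+MSC against BCP+MSC. By the unadjusted rule 2 of the 4 were higher, against 6.65% of all genes. Elastase (Elane) had a log2 fold change of 2.38 (SE 0.93), myeloperoxidase (Mpo) 1.77 (SE 0.84) and proteinase 3 (Prtn3) -0.44 (SE 0.58), while cathepsin G (Ctsg) was at a mean of 0.442 CPM against 0.162 CPM. Mean levels stayed at or below 1.20 CPM for Elane, Mpo and Ctsg. Of 10 further granule genes 1 was called higher, Lcn2, against 1.34% of all genes. This gene encodes the iron-siderophore binding lipocalin of specific granules and is also transcribed in epithelia and macrophages. Lcn2 was at 31.9 to 243 CPM in (dep)BCP+MSC and 4.71 to 12.0 CPM in BCP+MSC, with a log2 fold change of 3.63 (SE 0.87, adjusted p = 0.0231). Chil3, a chitinase-like protein shared by immature neutrophils and macrophages, had 3.05 (SE 1.00, adjusted p = 0.0931). The gelatinase Mmp9, stored in the latest granules, had -1.48 (SE 0.49, adjusted p = 0.0891). Pglyrp1 (-0.86, SE 0.58), Anxa1 (-0.60, SE 0.29) and Olfm4 (-0.24, SE 0.88) were also below 0. Of these 10 granule genes 6 were above 0, against 47.2% of all genes, with a median of 0.58.

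Of 21 other genes of mature neutrophils none was called in (dep)BCP+MSC against BCP+MSC. By the unadjusted rule 2 of the 21 were lower, against 6.53% of all genes. Above 0 were 5 of the 21, against 47.2% of all genes, with a median of -0.53. In (dep)BCP+MSC+RvE1inj none was called and 3 were lower by that rule, against 4.38% of all genes. There 6 of the 21 were above 0, against 47.1% of all genes. In BCP+MSC+Treg against BCP+MSC 17 of the 21 were above 0, against 45.5% of all genes, with none passing either rule. In BCP+MSC+RvE1 against BCP+MSC it was 18 of the 21, against 46.5% of all genes. These counts are a description.

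The ligands of the receptors did not move as 1 group. Csf3, the ligand of CSF3R, was at a mean of 1.23 CPM in (dep)BCP+MSC and 0.298 CPM in BCP+MSC, with a log2 fold change of 2.06 (SE 0.76, adjusted p = 0.127). Of the CXCR2 ligands, Ppbp had -1.71 (SE 0.54, adjusted p = 0.0738), Cxcl2 -1.22 (SE 0.60), Cxcl3 -1.30 (SE 0.65), Cxcl5 -0.57 (SE 0.49) and Cxcl1 1.42 (SE 0.81). By the unadjusted rule 1 of the 6 ligands was higher and 1 lower, against 6.65% and 6.53% of all genes, and none was called. Of 5 transcription factors of granulocyte development, none was called. By the unadjusted rule 1 was lower, against 6.53% of all genes, namely Cebpe, which drives specific granule genes. Cebpe was at a mean of 2.38 CPM against 7.61 CPM, with a log2 fold change of -1.64 (SE 0.65, adjusted p = 0.157). Gfi1, the only 1 of the 5 above 0, had 0.75 (SE 0.42). In (dep)BCP+MSC+RvE1inj against BCP+MSC, Cebpe had -0.45 (SE 0.64). There Gfi1 had 1.31 (SE 0.42, adjusted p = 0.163) and was 1 of the 5 higher by the unadjusted rule, against 5.07% of all genes.

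Markers of other cells were measured beside these genes. Of 10 macrophage markers 1, Mertk, was called higher in (dep)BCP+MSC, against 1.34% of all genes. The summed level of the 10 was 3670 to 7150 CPM, close to the 3905 to 8291 CPM of BCP+MSC. Of 5 monocyte markers none was called and 1 was lower by the unadjusted rule, against 6.53% of all genes. It was Ccr2, the receptor that brings monocytes into tissue (-1.32, SE 0.50, adjusted p = 0.141). Of 8 eosinophil markers none was called, and by the unadjusted rule 1 was higher and 2 were lower, against 6.65% and 6.53% of all genes. These were Epx, the eosinophil peroxidase (3.49, SE 1.14, adjusted p = 0.0844), and the surface proteins Siglecf (-1.30, SE 0.46, adjusted p = 0.107) and Ccr3 (-1.11, SE 0.42, adjusted p = 0.137). Of 7 mast cell and basophil markers 1, Fcer1a, was called higher in both toxin-treated groups. The shares of all genes called higher were 1.34% in (dep)BCP+MSC and 0.242% in (dep)BCP+MSC+RvE1inj. The sum of the 7 was 175 to 198 CPM in (dep)BCP+MSC against 68.6 to 224 CPM in BCP+MSC. Red cell markers (5) and platelet markers (4) gave no call, and neither did 8 muscle markers, although muscle transcripts summed to 280 to 22566 CPM over the BCP+MSC samples. The part of these cells in the neutrophil genes was not tested.

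Correlations of log2 CPM across the 24 samples are given as a description, since the samples share groups and depth. S100a8 and S100a9 had Pearson's r = 0.976, Cxcr2 and Csf3r 0.917, Ngp and Camp 0.888, Ngp and Ltf 0.761 and Camp and Ltf 0.722. Retnlg stood less close, with r = 0.407 for Cxcr2, 0.236 for Csf3r and 0.252 for Camp. Within groups its r was 0.266 for Cxcr2, -0.058 for Csf3r and 0.644 for Camp. Between receptor and granule genes r was -0.417 for Cxcr2 and Ngp and -0.430 for Csf3r and Ngp, and within groups these were 0.206 and 0.140. Within groups S100a8 had r = 0.577 with Camp and 0.610 with Ltf. Mmp8 had r = 0.427 with Ngp, 0.365 with Camp, 0.527 with Ltf and -0.320 with Cxcr2. Within groups these were -0.246, -0.337, 0.095 and 0.628, so Mmp8 did not follow the specific granule genes there. Among 14763 genes with a mean of at least 1 CPM, those most like Cxcr2, Csf3r and Retnlg by mean r were Vasp (0.795), Rab32, Dynll1, Srsf7, Ccl4, Samsn1, Lst1 and Trem3 (0.766). Those most like Ngp, Camp and Ltf were Gm42595 (0.792), Ifitm10, Selenbp1, Ppp1r1b, Trp53bp2, Bik, Lcn2 and Mat2b (0.749).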

How the data were processed

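Bulk RNA sequencing of 24 constructs, 1 per animal, in 6 groups of 4 was analysed. The authors made strand-marked libraries from polyadenylated RNA, read both ends, used HISAT2 2.0.5 for alignment and counted pairs on exons with featureCounts 1.5.2 and GENCODE M13. The deposited values are raw counts for 51138 genes, with no normalization. The counting command named no strand or multi-mapping option. Symbols were matched for 50376 IDs.

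Counts were analysed in R 4.3.3 with edgeR 4.0.16. The 30564 genes that reached 10 counts in all were kept, scaled by TMM, and fitted in 1 robust quasi-likelihood model of all 6 groups without covariates. A gene was called at a Benjamini-Hochberg adjusted p below 0.05 over all genes and a log2 fold change beyond 1, and the unadjusted rule replaced the adjusted p by p. Exact two-sided permutation tests used log2 CPM with a prior count of 2. In all 8 comparisons and an interaction were planned, and (dep)BCP+MSC+RvE1inj against BCP+MSC was added after the data were seen. The members and lists were chosen with earlier results of these data known. Named besides the members were listed genes that were called (up to 4 a list), all azurophil granule genes and ligands, and Cebpe. The 8 genes most correlated with each set were also named. Mmp9, Chil3, Pglyrp1, Anxa1, Olfm4, Gfi1 and the skin, mast cell, macrophage, monocyte and eosinophil genes named were picked after their values were seen. The fits were tested on simulated data.

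Depth ran from 8482701 to 144417743 counts, and p-values measure the spread between animals. Sequences were read from RefSeq promoters (GRCm38.p6). Alternatives were RLE scaling, the filterByExpr filter, no filter, a replicate block, edgeR on 2 groups, DESeq2 1.42.0, library size or a skin score as covariate, and leaving out each sample. Python 3.11.15 and matplotlib 3.10.9 were used for tables and plots.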

Additional observations from a re-analysis of the deposited data

Results flagged for a closer look

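In 60 sets of 4 samples (10 genes in 6 groups), 8 samples lay far from the other 3 of their group by Dixon's 95% criterion. The criterion flags about 1 in 20 independent sets of normally distributed values. It was applied here to CPM without a log scale, in sets that share samples, so that rate is no measure for the 8. All 8 were the highest of their set. Of the 8 flagged, 3 were animal 5 of (dep)BCP+MSC. S100a8 was at 101 CPM there, against 15.8 to 18.0 CPM in the others. S100a9 was at 203 CPM, against 12.5 to 28.0 CPM. Camp was at 14.5 CPM, against 0.940 to 3.07 CPM. Retnlg was at 75.7 CPM in (dep)BCP+MSC+RvE1inj replicate 4, against 29.8 to 34.7 CPM. Mmp8 was at 12.4 CPM in BCP+MSC replicate 2, against 2.97 to 3.77 CPM. Ngp was at 2.04 CPM in BCP replicate 3, against 0 to 0.292 CPM, and at 1.54 CPM in BCP+MSC replicate 4, against 0.0458 to 0.166 CPM. Ltf was at 20.9 CPM in BCP+MSC+RvE1 replicate 1, against 1.59 to 3.26 CPM.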

How the results depend on the processing

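Values of 39 single-gene fold changes were recomputed in 624 fits, and 597 kept their direction and their side of the adjusted threshold. That figure says little, since all but 1 of the 39 were uncalled in the model reported. The 1 call, Camp in (dep)BCP+MSC against BCP+MSC, held in 5 of 8 other settings and in 6 of 8 fits leaving out 1 sample. The direction turned for Ly6g in (dep)BCP+MSC against BCP+MSC with the replicate block (-2.39) and the skin score (-0.44), and for Camp in (dep)BCP+MSC+RvE1inj against (dep)BCP+MSC with the replicate block (0.44). Leaving out 1 sample at a time moved these from -1.24 to 0.65 and from -1.48 to 0.14, and Ngp in BCP+MSC against BCP from -2.57 to 1.61. The causes were not tested.

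Members called in (dep)BCP+MSC against BCP+MSC at the adjusted threshold numbered 1 in the model reported, 4 with DESeq2, 2 with filterByExpr, 2 with library size as covariate, 0 with edgeR on 2 groups, 0 with the skin score, 3 with the replicate block, and 0 to 4 leaving out 1 sample. Of all genes, 6.04% were called with DESeq2, 5.38% with filterByExpr, 2.84% with library size, 0.595% on 2 groups, 1.48% with the skin score and 7.07% with the block. The 3 under the block were S100a9, Cxcr2 and Csf3r, lower, and Camp lost its call there (3.34, adjusted p = 0.140); the unadjusted count was 4 to 8 leaving out 1 sample. In (dep)BCP+MSC+RvE1inj against BCP+MSC, DESeq2 called 3. For any difference between the 6 groups the adjusted count of 2 became 8 with DESeq2, 4 with RLE, 5 with filterByExpr, 4 with the block (5.47%, 8.33% and 5.25% of all genes), 0 with the skin score, and 1 to 5 leaving out 1 sample. By the unadjusted rule BCP+MSC+Treg against BCP gave 3 with DESeq2, 2 with RLE, 3 with 2 groups, 0 with library size, 2 with the block, 0 with the skin score and 0 to 3 leaving out 1 sample. BCP+MSC+RvE1 against BCP+MSC gave 1 with DESeq2, 1 with 2 groups and 0 to 2 leaving out 1 sample, BCP+MSC+RvE1 against BCP 0 to 1, and BCP+MSC+Treg against BCP+MSC 0 to 3. The interaction gave 0 with library size, 2 with the block and 0 to 2 leaving out 1 sample. Within toxin-treated hosts the block gave 1 adjusted and 3 unadjusted calls, and leaving out 1 sample 0 to 1. For the counts by the unadjusted rule, those within toxin-treated hosts and the ranges leaving out 1 sample, shares of all genes are not given here. They show how far a count moved with the setting, not whether it exceeded the share of all genes.

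Replicate numbers did not pair the samples: deviations of 50 same-numbered pairs had a median correlation of 0.0039, and 10 exceeded 0.1. The block drops animals 4 and 5 of (dep)BCP+MSC, which share no number. Low counts of Camp, Ngp and Ly6g limit their precision.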
